A study of Mus musculus with 96 samples.

Results

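Asparagine, proline, alanine, cysteine, arginine and glutamine can all be made by animal cells, and 8 genes that encode enzymes of these routes were followed across every condition of the series. The genes were chosen by name, as the rows of the count table for Asns, Aldh18a1, Pycr1, Gpt2, Cth, Cbs, Ass1 and Glul, which are 8 of its 54150 rows. RNA was sequenced from 96 samples of C2C12 cells, a mouse line that divides as myoblasts in rich serum and fuses into myotubes in low serum, in 35 conditions of 2 or 3 samples. The treatments blocked or loaded the mitochondrial electron transport chain in different places.

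All myoblast lines carried a doxycycline-inducible transgene delivered by lentivirus and were kept in 10% serum with 300 ng/ml doxycycline. The control line expressed luciferase. The LbNOX line expressed a bacterial NADH oxidase, which turns NADH into NAD+ in the cytosol, and the mitoLbNOX line expressed the same enzyme targeted to mitochondria. The NDI1 line expressed the yeast NADH dehydrogenase, which piericidin does not block. Myoblasts received DMSO, 0.5 µM piericidin (a complex I inhibitor), 0.5 µM antimycin (complex III) or 1 µM oligomycin (ATP synthase) for 10 h, except that the mitoLbNOX line had no oligomycin group and the NDI1 line had only DMSO and piericidin. In a separate experiment the control and LbNOX lines received 20 µg/ml chloramphenicol, an inhibitor of mitochondrial translation, or DMSO for 48 h in medium with uridine. Untransduced cells in 2% serum were treated for 10 h after 1 day (day 1 cells) or 4 days (myotubes). Untransduced myotubes also received 0.5 µM BAM15, an uncoupler, oligomycin together with piericidin or BAM15, or DMSO or oligomycin at 5% oxygen. The myotubes at 5% oxygen were already kept there during the night before treatment. Other myotubes were transduced, 48 h after the switch to low serum, with an adenovirus that carried GFP alone or GFP and LbNOX, and received DMSO, piericidin or oligomycin. Groups held 3 samples, except for 2 in each NDI1, chloramphenicol-experiment and GFP myotube group.

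Asparagine synthetase (Asns) moves the amide nitrogen of glutamine onto aspartate. Aldh18a1 reduces glutamate to the precursor of proline and ornithine, and Pycr1 completes proline inside mitochondria with a reduced nicotinamide cofactor. Gpt2 is the mitochondrial enzyme that interconverts alanine and glutamate. Cbs joins homocysteine and serine into cystathionine, and Cth splits cystathionine to release cysteine. Ass1 joins citrulline and aspartate on the way to arginine, and Glul fixes ammonia onto glutamate to give glutamine. Aspartate synthesis is known to need NAD+ regeneration, and several of these genes are known targets of Atf4, the transcription factor of the integrated stress response, which often binds a composite C/EBP-ATF response element.

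The core of that element, TGATGNAA, was searched on both strands in the 250 bases before the RefSeq transcript start (build GRCm38.p6), and 3.45% of 32851 mouse promoters held it. It was present in Asns and Pycr1 among the 7 members in the promoter table. The stretches around both matches are shown because Asns and Pycr1 answered antimycin differently in control myoblasts although both held the element. Capitals mark the match, which begins 23 bases before the start in Asns and 103 bases before it in Pycr1, and the text reads 5′ to 3′ on the coding strand.
Asns, chr6:7693214-7693243, minus strand: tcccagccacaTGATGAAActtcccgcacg
Pycr1, chr11:120643770-120643998, minus strand: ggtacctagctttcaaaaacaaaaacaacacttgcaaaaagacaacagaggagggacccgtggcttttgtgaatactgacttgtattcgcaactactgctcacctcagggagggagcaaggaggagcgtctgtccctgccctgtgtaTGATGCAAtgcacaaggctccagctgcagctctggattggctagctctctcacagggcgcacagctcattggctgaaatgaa
In the GENCODE annotation of the same build the Asns match lies within the annotated exon at the 5′ end and the Pycr1 match lies upstream of the gene. No match was found for Aldh18a1, Gpt2, Cbs, Ass1 or Glul, which says only that these letters are not in that window.

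The 8 genes are protein-coding and lie apart from each other in the mouse genome (GRCm38). Asns is at chr6:7675169-7693254 (minus strand), Aldh18a1 at chr19:40550257-40588463 (minus), Pycr1 at chr11:120635712-120643769 (minus) and Gpt2 at chr8:85492576-85527560 (plus). Cth is at chr3:157894248-157925077 (minus), Cbs at chr17:31608894-31637238 (minus), Ass1 at chr2:31470207-31520672 (plus) and Glul at chr1:153899944-153909723 (plus). Exon bases of Glul overlap those of Mir8114 and, on the opposite strand, Teddm2, and the libraries did not keep strand. Ass1 has a near-identical copy, Gm5424 (99.5% identity over 1240 bases), whose estimated count was at most 24 in any sample, so that the division of reads between them is uncertain. Glul and Gpt2 have pseudogenes, Glns-ps1 and Gm5049, that reached estimated counts of at most 6 and 3. Transcripts of Cbs share stretches of at least 90% identity with other genes, among them Sin3b (91.4% over 244 bases, estimated counts up to 1260) and Vmn1r218 (90.7% over 421 bases, up to 106), so that its low counts are uncertain.

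Libraries held between 6458295 and 15366745 estimated counts. Every transgene was absent from the samples not meant to carry it, and its lowest count in a sample meant to carry it was 372. The summed level of 5 proliferation markers was 558 to 1126 counts in every 1000000 after scaling (CPM) over the 45 myoblast samples, 185 to 223 over the 9 day 1 samples and 28.8 to 149 over the 42 myotube samples. The summed level of 6 myotube markers was 10.2 to 94.2 CPM in myoblasts and at least 10177 CPM in every sample of the other states. These are bulk samples, in which fewer cells of a type and less RNA per cell cannot be told apart.

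In control myoblasts all 3 inhibitors raised Asns, Aldh18a1, Gpt2, Cth and Ass1. Pycr1 rose with piericidin and oligomycin, while its antimycin and DMSO samples overlapped. Glul fell with piericidin and oligomycin. Cbs was called lower with all 3, on estimated counts of at most 20, and its oligomycin call was lost under most alternatives. A gene was called when its adjusted p was under 0.05 in edgeR's quasi-likelihood test over all genes. Beside each count of members called, the background is the share of all genes tested that were called, followed where needed by the share called in 1 direction. Under piericidin 6 members were higher and 2 lower (background 61.7%, 30.9% higher), under antimycin 5 were higher and 1 lower (63.2%, 32.1% higher) and under oligomycin 6 were higher and 2 lower (50.8%, 24.5% higher). The median log2 fold change over the 8 genes was 1.64, 0.92 and 1.79 under piericidin, antimycin and oligomycin, beside medians between -0.01 and -0.00 over all genes tested.

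**Figure D1:**
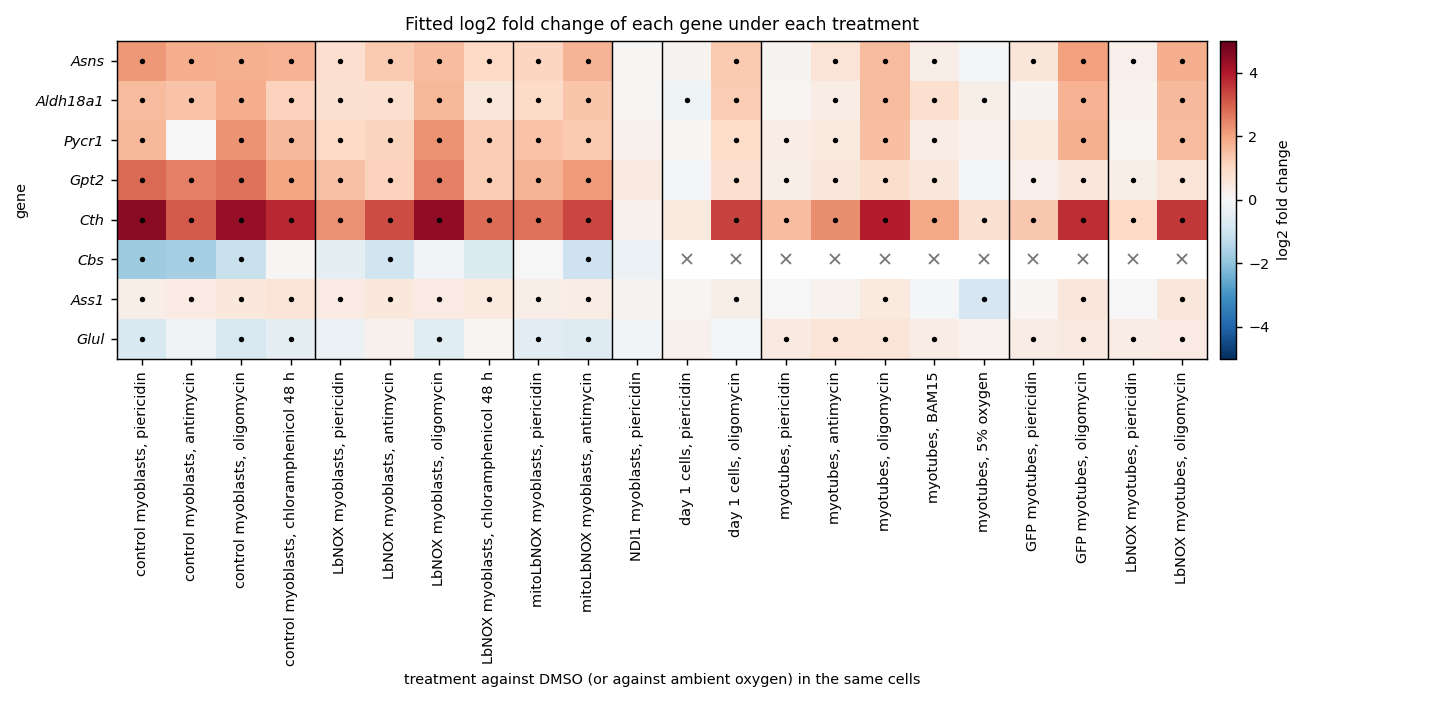
Fitted log2 fold change (colour, log2 units) of the 8 genes (rows) for each treatment against DMSO, or 5% against ambient oxygen, in the same cells (columns). Black dots mark an adjusted p under 0.05 and crosses mark genes not tested. Cth has the deepest red in most columns, Cbs and Glul are blue in control myoblasts under piericidin, antimycin and oligomycin, and Glul is red in myotubes.

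Asns stood at 172, 171 and 167 CPM in the DMSO samples of control myoblasts. It reached 713, 783 and 734 CPM with piericidin, 586, 597 and 567 with antimycin and 579.6, 601 and 546 with oligomycin. Treated and untreated samples did not overlap for any inhibitor. The log2 fold changes were 2.17 ± 0.05 (SE), 1.82 ± 0.05 and 1.78 ± 0.05, with adjusted p of 1.8e-25, 1.2e-23 and 4.0e-23. Between inhibitors, 6 members differed for antimycin against piericidin (background 37.2%, 17.9% lower, as 5 members were), 4 for piericidin against oligomycin (39.2%, 19.2% lower, as 3 were) and 5 for antimycin against oligomycin (50%, 23.9% lower, as 4 were). In fits without a replicate the calls of Gpt2 and Aldh18a1 between antimycin and piericidin were lost in 2 and 1 of 3, and that of Ass1 between antimycin and oligomycin in 2 of 3. Piericidin raised Asns more than oligomycin did, by 0.39 ± 0.05 on the log2 scale (adjusted p = 7.3e-08). Antimycin and oligomycin differed by 0.04, with a 95% interval of -0.05 to 0.13.

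The proline enzymes parted under antimycin. Aldh18a1, which makes the shared precursor, went from 94.3, 109 and 109 CPM in DMSO to 301, 314 and 303 with piericidin, 276, 276 and 265 with antimycin and 369.9, 369 and 340.5 with oligomycin. Pycr1 held 12.8, 11.5 and 13.0 CPM in DMSO. It rose to 34.7, 42.3 and 39.0 CPM with piericidin and to 56.9, 60.1 and 59.6 with oligomycin, while antimycin samples held 13.3, 10.6 and 11.5. The antimycin samples thus overlapped with DMSO and lay below every sample of the other inhibitors. The fitted change of Pycr1 under antimycin was -0.04 ± 0.10 on the log2 scale, with a 95% interval of -0.23 to 0.15. Against piericidin, Pycr1 with antimycin differed by -1.72 ± 0.09 on the log2 scale (adjusted p = 1.5e-15), and against oligomycin by -2.30 ± 0.09 (adjusted p = 3.2e-19). Aldh18a1 differed much less between the same pairs, by -0.17 and -0.38 on the log2 scale, with adjusted p of 0.0092 and 3.3e-07.

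Gpt2, the alanine transaminase of mitochondria, held 50.5, 85.6 and 85.3 CPM in DMSO. Its levels were 496, 511 and 515 CPM with piericidin, 424, 433 and 398 with antimycin and 491, 475 and 455 with oligomycin. The log2 fold changes were 2.82 ± 0.11, 2.54 ± 0.11 and 2.70 ± 0.11. The first DMSO sample stood well below the other two, and without the samples numbered 1 the 3 changes were 2.61, 2.33 and 2.46. Piericidin and oligomycin differed by 0.12 on the log2 scale, with a 95% interval of -0.07 to 0.32.

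Cth, which releases cysteine, had the largest change of the 8 genes under each inhibitor. It went from 12.6, 10.95 and 11.4 CPM in DMSO to 254, 258 and 256 with piericidin and 229, 234 and 239 with oligomycin. Antimycin samples held 103, 93.1 and 88.9 CPM, between DMSO and the other inhibitors with no overlap. Cth thus rose 22.7-fold with piericidin, with a log2 fold change of 4.50 ± 0.10 (adjusted p = 9.9e-26), by 4.35 ± 0.10 on the log2 scale with oligomycin and by 3.07 ± 0.10 with antimycin. The difference between antimycin and piericidin was -1.43 ± 0.08 on the log2 scale (adjusted p = 2.2e-14).

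Cbs, the enzyme just before Cth, moved the other way but at the edge of detection. Its estimated counts were 15, 20 and 12 in the DMSO samples of control myoblasts, 5, 2 and 3 with piericidin, 6, 2 and 3 with antimycin and 9, 8 and 2 with oligomycin. The fitted changes were -1.77 ± 0.52, -1.66 ± 0.51 and -1.11 ± 0.47 on the log2 scale, with adjusted p of 0.0040, 0.0059 and 0.047. No group of control myoblasts reached 16 counts in all samples, the minimum for a gene to be tested, and Cbs was tested because it did so in other lines. The oligomycin call was lost whichever replicate number was left out, by DESeq2 and with no count filter, and each of the others in 1 of 3 fits without a replicate. In cells in low serum Cbs reached an estimated count of at most 9 and was not tested.

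Ass1 and Glul differed from DMSO by less than 2-fold under each inhibitor. Ass1 rose from 167, 174 and 164 CPM in DMSO to 194, 217 and 214 with piericidin, 214, 220.5 and 219 with antimycin and 232, 244 and 245 with oligomycin, with log2 fold changes of 0.35, 0.41 and 0.53 (SE 0.04 each). Glul held 25.6, 30.7 and 26.1 CPM in DMSO, 14.96, 15.9 and 16.3 with piericidin and 15.3, 17.3 and 14.2 with oligomycin. The Glul samples of both treatments lay below every DMSO sample, and the changes were -0.77 ± 0.11 and -0.80 ± 0.11 on the log2 scale. Antimycin samples held 26.2, 21.3 and 23.0 CPM of Glul and overlapped with DMSO, with a change of -0.19 and a 95% interval of -0.40 to 0.02.

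The other genes of these routes were taken from lists of enzymes, and their counts stand beside 30.9%, 32.1% and 24.5% of all genes that rose and 30.8%, 31.1% and 26.3% that fell with piericidin, antimycin and oligomycin. In control myoblasts under piericidin, antimycin and oligomycin 2, 2 and 1 of the 5 tested aspartate, asparagine and alanine genes rose and 0, 1 and 0 fell, and 2, 0 and 1 of the 5 proline and ornithine genes rose and 0, 2 and 2 fell. Got1, the cytosolic aspartate transaminase, rose by 1.94 ± 0.08, 1.55 ± 0.08 and 1.85 ± 0.08 on the log2 scale. Of the members' paralogs, Pycrl changed by 0.13, -0.67 and -0.04 (the antimycin value alone called). Gpt, the cytosolic partner of Gpt2, changed by -0.73, -1.22 and -0.79 from a mean of 3.61 CPM in DMSO, and the antimycin value alone passed the test (adjusted p = 0.011). Prodh, which breaks proline down, fell by 1.17 under antimycin. Of the 8 tested methionine, cysteine and glutathione genes 3, 3 and 2 rose and 2, 3 and 0 fell. Mtrr, which reactivates methionine synthase, rose by 1.02, 1.43 and 1.28, Mtr, methionine synthase itself, rose by 1.04 under oligomycin, and Mat2a, which makes S-adenosylmethionine, fell by 1.71 under antimycin. Of the 2 tested glutamate and glutamine genes 1 rose with each inhibitor, and of the 2 tested arginine and urea cycle genes 1 rose and 1 fell with each. Glud1, glutamate dehydrogenase on the first list, rose by 1.40, 1.62 and 1.33 with SEs of 0.48, and Odc1, which decarboxylates ornithine and is on the second, rose by 1.24, 1.42 and 1.18.

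All 4 serine synthesis genes on the list and all 6 stress response genes rose with each inhibitor, beside the 30.9%, 32.1% and 24.5% of all genes that rose. These lists were chosen with earlier results of these data known, so that full counts here and below are not independent of the data. Phgdh, the entry enzyme of serine synthesis, rose by 1.17 and 1.13 under piericidin and oligomycin, Psat1 by 1.22 under piericidin, Psph by 2.57, 1.54 and 2.41, and Shmt2, the mitochondrial serine hydroxymethyltransferase, by 1.62 and 1.11 under piericidin and antimycin. Atf4 itself rose by 2.39 ± 0.03, 2.78 ± 0.03 and 1.66 ± 0.03 under piericidin, antimycin and oligomycin. By fitted change antimycin was thus the highest of the 3 inhibitors for Atf4 mRNA and the lowest for Cth and Pycr1. The median over the 6 stress genes was 4.18, 4.91 and 3.60, and their part in the changes of the 8 genes was not tested.

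The NADH oxidase lines addressed how these responses change when NADH is oxidised in another way. In LbNOX myoblasts piericidin raised 6 of the 8 genes (background 8.87%, 5.01% higher) and in mitoLbNOX myoblasts it raised 6 and lowered Glul (11.2%, 6.37% higher), a Glul call lost in 2 of 3 fits without a replicate. The rises of Asns, Aldh18a1, Gpt2 and Cth were smaller than in the control line in both, and Ass1 rose by 0.39 and 0.34, beside 0.35 in the control line. Asns went from 173, 186 and 164 to 308, 307 and 317 CPM in LbNOX myoblasts, and from 213, 195 and 189.9 to 414, 437 and 414 in mitoLbNOX myoblasts. Cth went from 7.34, 6.84 and 7.08 to 35.7, 35.6 and 32.5 CPM, and from 15.1, 11.9 and 10.0 to 78.7, 90.4 and 79.7. No sample of these lines under piericidin reached the control line's piericidin levels of either gene. The difference in response, LbNOX minus control, was -1.33 ± 0.07 for Asns, -0.84 ± 0.07 for Aldh18a1, -0.68 ± 0.12 for Pycr1, -1.36 ± 0.15 for Gpt2 and -2.21 ± 0.14 for Cth on the log2 scale. These 5 were lower by the test of the difference, Glul was higher by 0.47 (0.27 to 0.65 and not called in 2 of 3 fits without a replicate), and the background for that test was 44.3%, 22% lower. With mitoLbNOX, Asns, Aldh18a1, Gpt2 and Cth responded less, by -1.10, -0.65, -1.11 and -1.77 (background 42.9%, 21.4% lower). Cbs was higher by 1.81 ± 0.65, a call lost in 2 of 3 fits without a replicate. Among the groups compared only mitoLbNOX with piericidin, at counts of 24 to 28, met the count minimum for Cbs. The Cbs call therefore does not support a count of members. Pycr1 differed by -0.26 with a 95% interval of -0.49 to -0.02 (adjusted p = 0.087).

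**Figure D2:**
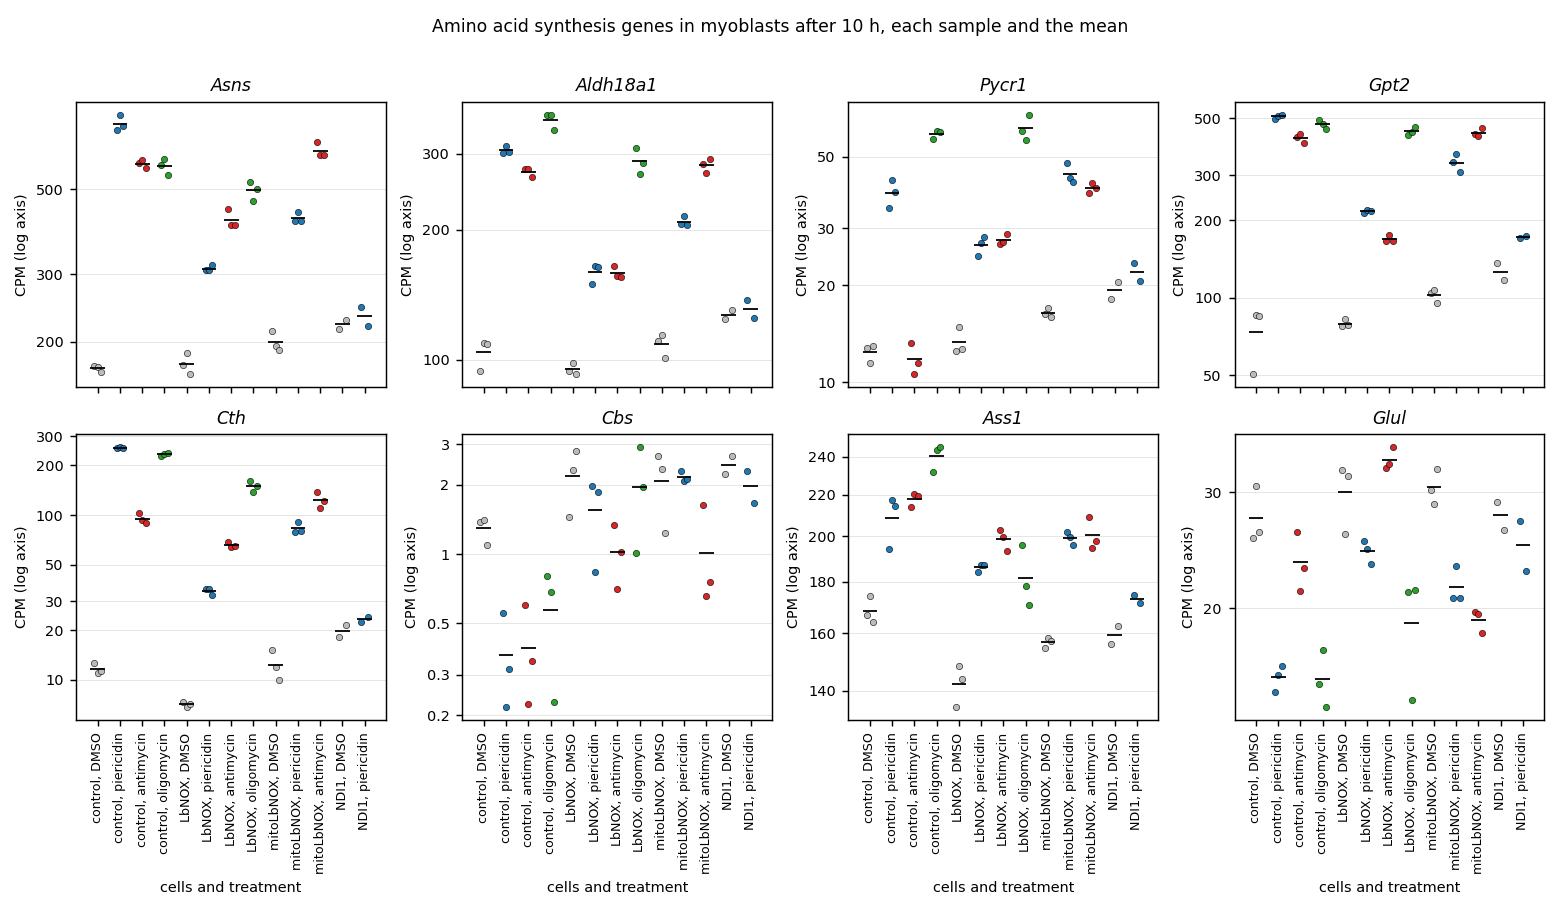
Level of each gene in CPM (vertical, log axis) in the 13 groups of myoblasts treated for 10 h (horizontal), with each sample as a point and the group mean as a bar. Pycr1 under antimycin lies at the DMSO level in the control line, at 10.6 to 13.3 CPM, and at 26.9 to 41.6 CPM in the LbNOX and mitoLbNOX lines.

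In NDI1 myoblasts none of the 8 genes passed the test under piericidin, where the background was 0.00835%. By an unadjusted p under 0.05 the count was 2, Gpt2 and Ass1, and by DESeq2 it was 0. Asns held 216 and 228 CPM in DMSO and 246 and 219.9 with piericidin, and Cth held 18.2 and 21.5, then 22.4 and 24.1. Gpt2 held 136 and 117 CPM in DMSO and 171 and 174 with piericidin, so that its pairs of samples did not overlap. Its change was 0.45 ± 0.13 on the log2 scale (adjusted p = 0.58). Against the control line the response was lower in 6 genes and higher in Glul (background 42.7%, 21.5% lower), with a difference of -4.27 ± 0.15 on the log2 scale for Cth (adjusted p = 6.4e-20). The Ass1 call was lost with no count filter and with only the groups compared. Leaving out a replicate can leave 1 NDI1 sample a group. The difference then ranged from -0.28 to -0.17 for Ass1 and from 0.58 to 0.70 for Glul, and neither call was kept in every such fit.

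Antimycin gave a different picture in the same lines. In LbNOX myoblasts it raised 6 genes and lowered Cbs (background 46.1%, 23.3% higher), and in mitoLbNOX myoblasts it raised the same 6 and lowered Cbs and Glul (47.7%, 24.8% higher). Both Cbs calls were lost by DESeq2, with no count filter and in 2 of 3 fits without a replicate. Pycr1, which antimycin did not raise in the control line, went from 12.5, 14.8 and 12.7 to 26.9, 27.2 and 28.9 CPM in LbNOX myoblasts. In mitoLbNOX myoblasts it went from 16.3, 16.96 and 15.9 to 38.6, 41.6 and 40.0 CPM. Every antimycin sample of these lines lay above every antimycin sample of the control line, by more than the spread within any group. The difference in response was 1.14 ± 0.13 for LbNOX (adjusted p = 1.2e-08) and 1.34 ± 0.13 for mitoLbNOX (adjusted p = 1.5e-09) on the log2 scale.

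Of the other genes, Glul alone was also called higher with LbNOX, and none was with mitoLbNOX. With LbNOX the antimycin response differed by -0.50 for Asns, -0.62 for Aldh18a1, -1.39 for Gpt2 and 0.41 for Glul on the log2 scale (5 genes called with Pycr1, background 51.5%, 26.8% lower). The Glul difference ranged from 0.17 to 0.61 and lost its call in 2 of 3 fits without a replicate. Gpt2 reached 167, 176 and 166 CPM with antimycin in LbNOX myoblasts, against 424, 433 and 398 in the control line. Cth reached 68.6, 63.5 and 65.3 CPM from a lower DMSO level, and its response differed by 0.20 with a 95% interval of -0.07 to 0.48. With mitoLbNOX Pycr1, Gpt2 and Glul were called (background 31.7%, 16.3% lower), the latter pair at -0.42 and -0.46, calls that were each lost in 2 of 3 fits without a replicate. Asns differed by -0.14 with a 95% interval of -0.27 to -0.00. In LbNOX myoblasts antimycin lowered Atf4 mRNA by 0.51 on the log2 scale. Asns rose by 1.31 ± 0.05, Cth by 3.27 ± 0.10 and Pycr1 by 1.10 ± 0.09. RNA sequencing does not measure Atf4 protein, and the part of Atf4 in the changes of these genes was not tested. In the same comparison 4 of the 6 stress genes rose and all 4 serine genes rose, beside 23.3% of all genes.

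The response to oligomycin differed least between LbNOX and control. In LbNOX myoblasts 6 genes rose and Glul fell (background 35.2%, 17.5% higher), with Cth at 161, 138 and 150.0 CPM and Pycr1 at 60.04, 56.4 and 67.4. Asns alone differed in its response, by -0.22 ± 0.07 on the log2 scale (adjusted p = 0.037, background 7.98%), and that call was lost whichever replicate number was left out. For Cth the difference was 0.10 with a 95% interval of -0.17 to 0.37.

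Without inhibitor the lines were not alike. Cth in DMSO was 7.34, 6.84 and 7.08 CPM in LbNOX myoblasts, below every control sample, and the difference was -0.71 ± 0.11 on the log2 scale. Ass1 differed by -0.24 ± 0.04 (background 2.66%), a call lost with only the groups compared and in some fits without a replicate. In mitoLbNOX myoblasts Asns, Pycr1 and Gpt2 were higher by 0.23, 0.40 and 0.47 (background 1.74%, 0.977% higher), 3 calls of which 0 to 1 remained on leaving out a replicate. Without the samples numbered 1, which include the low control sample, Gpt2 was higher by 0.24 and not called. In NDI1 myoblasts Asns, Aldh18a1, Pycr1, Gpt2 and Cth were higher by 0.38, 0.29, 0.63, 0.78 and 0.77 (background 4.58%, 2.72% higher), with Cth at 18.2 and 21.5 CPM, and without the samples numbered 1 Gpt2 was higher by 0.44. With a fit on only the groups compared these 3 counts were 1, 0 and 2, fewer than the 2, 3 and 5 of the fit over all myoblasts.

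Chloramphenicol, the inhibitor of mitochondrial translation given for 48 h, raised Asns, Aldh18a1, Pycr1, Gpt2, Cth and Ass1 as well. In control myoblasts it raised these 6 and lowered Glul (background 8.45%, 4.83% higher), a Glul call that was lost in 6 of 8 fits without a sample and under most other alternatives. Asns went from 134 and 132 to 435 and 419 CPM, Pycr1 from 12.2 and 11.9 to 39.8 and 32.3, Gpt2 from 64.5 and 64.9 to 259 and 231, and Cth from 8.65 and 8.41 to 112 and 111. The groups of 2 samples did not overlap for any of these, and the share of all genes without overlap was not counted. The log2 fold changes were 1.73 ± 0.05, 1.63 ± 0.14, 1.97 ± 0.07 and 3.75 ± 0.11. The median over the 8 genes was 1.40, beside 0.01 over all genes. Among the listed neighbours Got1 rose by 0.57 and all 4 serine genes and all 6 stress genes rose.

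In LbNOX myoblasts chloramphenicol raised 6 of the 8 genes, the same as in the control line (background 0.931%, 0.675% higher), and 3 to 6 when single samples were left out. Asns went from 136 and 149.5 to 285 and 284 CPM and Cth from 5.6 and 5.5 to 41.1 and 35.7. The response differed from that of the control line by -0.73 for Asns, -0.62 for Aldh18a1, -0.68 for Gpt2 and -0.96 for Cth on the log2 scale (background 0.53%, 0.453% lower), with adjusted p of 0.010, 0.039, 0.026 and 0.047. With a replicate block there was 1 call in place of 4. Leaving out single samples leaves 1 sample in a group of 2, with the spread taken from the other groups. The differences then ranged from -0.78 to -0.66 for Asns and from -1.07 to -0.86 for Cth, and calls were lost.

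In myotubes oligomycin raised the 7 genes tested (background 33.3%, 16.9% higher), and for each but Glul its fitted change was the largest of the 4 treatments. Antimycin raised 6 (background 12.9%, 6.64% higher), BAM15 raised 6 (25.4%, 13.2% higher) and piericidin raised 4 (8.99%, 4.15% higher). The piericidin count includes Pycr1, at 0.37 on the log2 scale, a call lost whichever replicate number was left out. Glul rose with each of these 4 treatments. Cth is part of each of these counts but passed the count minimum only through other groups than DMSO at ambient oxygen, where its estimated counts were 19, 27 and 9, so that its calls do not support the counts. With no count filter these 4 calls of Cth were also made.

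Oligomycin took Asns in myotubes from 109.7, 102 and 105 to 319.8, 289 and 313 CPM, Aldh18a1 from 64.3, 61.2 and 53.1 to 181, 162 and 179, and Pycr1 from 23.6, 23.4 and 17.9 to 59.4, 55.9 and 63.1. Cth went from 2.01, 2.49 and 0.866 to 28.5, 25.2 and 26.1 CPM, a fitted log2 change of 3.92 ± 0.23 from that low DMSO level. Gpt2 went from 151, 149 and 176 to 281, 281 and 294 CPM, 0.88 ± 0.06 on the log2 scale. Treated and untreated samples were fully apart for all 5, and the share of all genes that were so apart was not counted.

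Piericidin left Asns at 102, 117 and 120.1 CPM and Aldh18a1 at 61.3, 57.1 and 64.7, which overlapped with DMSO. The changes were 0.12, with a 95% interval of 0.01 to 0.23 and an adjusted p of 0.23, and 0.06, with an interval of -0.09 to 0.20. Cth held 4.45, 4.87 and 6.05 CPM, above every DMSO sample, and rose by 1.54 ± 0.25 on the log2 scale. Antimycin raised Asns to 173, 173 and 161 CPM, by 0.70 ± 0.06, and Pycr1 to 30.5, 32.0 and 26.3 CPM, by 0.48 ± 0.10. BAM15 raised Aldh18a1 to 99.5, 99.1 and 96.6 CPM, by 0.79 ± 0.07, and Asns by 0.32 ± 0.06.

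**Figure D3:**
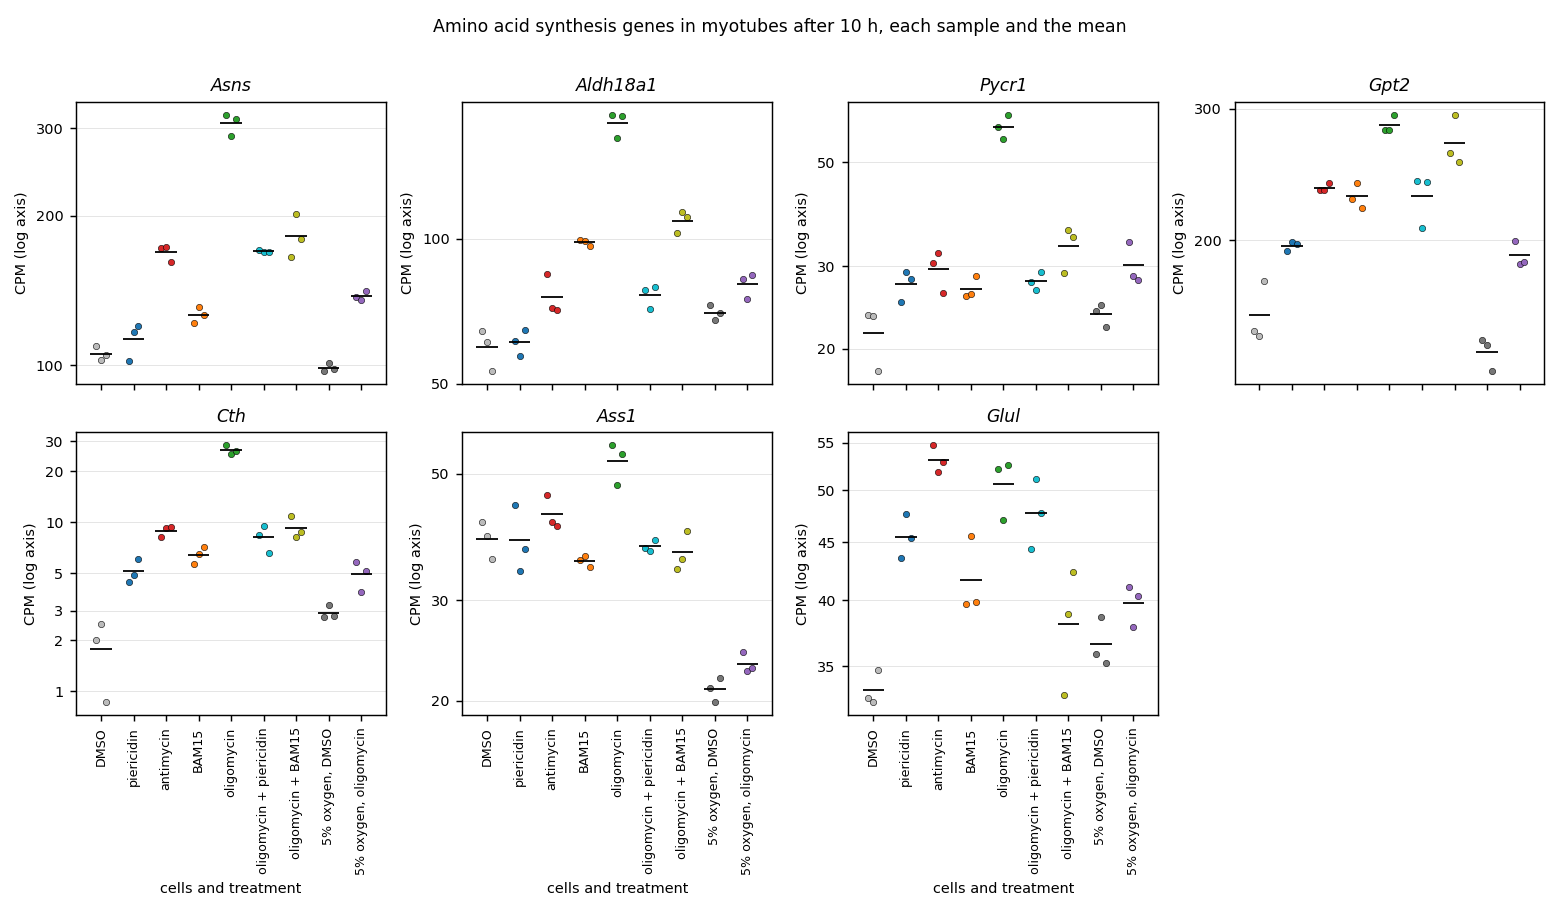
Level of 7 genes in CPM (vertical, log axis) in the 9 groups of untransduced myotubes (horizontal), with each sample as a point and the group mean as a bar. Oligomycin alone gives the highest mean of Asns, Aldh18a1, Pycr1, Gpt2, Cth and Ass1, the samples with a second agent or at 5% oxygen lie lower for these genes except for an overlap in Gpt2 with BAM15, and Ass1 is lowest at 5% oxygen.

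A second treatment reduced what oligomycin did. Against oligomycin alone, oligomycin with piericidin left 6 of the 7 genes lower (background 20.9%, 12.4% lower), oligomycin with BAM15 left 6 lower (26.1%, 14.1% lower) and oligomycin at 5% oxygen left all 7 lower (33.3%, 16.5% lower). Asns held 171, 169.6 and 169 CPM with oligomycin and piericidin, 165, 202 and 179.8 with oligomycin and BAM15 and 137, 135 and 141 with oligomycin at 5% oxygen. Cth held 8.43, 9.46 and 6.54 CPM, 10.8, 8.12 and 8.78 CPM, and 5.83, 3.87 and 5.13 CPM in the same order. None of these samples reached the lowest sample of oligomycin alone. Gpt2 was the exception with BAM15, at 262, 294 and 254 CPM, a difference of -0.05 with a 95% interval of -0.17 to 0.06.

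Because each second treatment also acts alone, the response to oligomycin was compared with and without it, in 3 tests added after the data had been seen. With piericidin present the response was lower in all 7 genes (background 14.6%, 8.77% lower), with BAM15 in all 7 (18.6%, 10.4% lower) and at 5% oxygen in 6 (17.4%, 9.56% lower), where Ass1 missed the threshold at -0.34 ± 0.13. With BAM15 the Ass1 call, at -0.43 ± 0.12, was lost whichever replicate number was left out. For Asns the differences were -0.97 ± 0.08, -1.05 ± 0.08 and -1.09 ± 0.08 on the log2 scale, and for Cth, which rests on its low counts in DMSO, -3.25 ± 0.32, -3.39 ± 0.31 and -3.16 ± 0.34. At 5% oxygen oligomycin still raised Asns by 0.49 ± 0.06, Pycr1 by 0.35 ± 0.10 and Gpt2 by 0.43 ± 0.06 (background 4.26%, 2.04% higher), and Pycr1 lost that call under most alternatives.

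Without inhibitor, 5% oxygen had its largest fitted effect on Ass1. Ass1 held 41.1, 38.9 and 35.4 CPM in ambient oxygen and 21.1, 19.9 and 21.9 CPM at 5% oxygen, without overlap. The change was -0.82 ± 0.09 on the log2 scale (adjusted p = 1.6e-07). Aldh18a1 rose by 0.29 and Cth by 0.75 ± 0.27, for 3 calls in all (background 22.1%, 12.3% higher), and Cth lost its call under most alternatives. Cth met the count minimum only in the group at 5% oxygen, at counts of 26 to 34, so that its call does not support the count. Asns changed by -0.04, with a 95% interval of -0.16 to 0.07. Among the listed neighbours Got1, Got2, Gpt and Pycrl fell at 5% oxygen, Gpt by 0.49 and Pycrl by 0.34 on the log2 scale. They are single named genes and not a count over the lists, beside 22.1% of all genes called in either direction.

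Adenoviral LbNOX did not detectably change the response of myotubes to oligomycin. All 7 genes rose in GFP myotubes (background 25.8%, 14% higher) and in LbNOX myotubes (31.8%, 17.2% higher). Asns went from 81.0 and 73.3 to 311 and 324 CPM with GFP, and from 81.3, 85.7 and 83.1 to 294, 288 and 285 with LbNOX. Pycr1 went from 15.96 and 17.4 to 53.1 and 61.6 CPM, and from 16.99, 19.4 and 20.5 to 56.7, 55.0 and 55.1. By edgeR no member differed in its response, nor did any other gene (0%), with 1 member at an unadjusted p under 0.05 (Asns) and 0 by DESeq2. The difference for Asns was -0.23 with a 95% interval of -0.40 to -0.05, and for Cth -0.15 with an interval of -0.83 to 0.53. In DMSO no member differed between LbNOX and GFP (background 0.00807%), with 1 at an unadjusted p under 0.05 (Gpt2) and 0 by DESeq2. Piericidin raised Asns, Gpt2, Cth and Glul both with GFP (background 3.08%, 1.45% higher) and with LbNOX (6.77%, 3.4% higher). With GFP the fit on only the groups compared called 0 of these, and with LbNOX 2.

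In day 1 cells oligomycin raised 6 of the 7 tested genes (background 20.7%, 10.6% higher), with Asns at 162, 168 and 175 CPM in DMSO and 402, 420.0 and 417 with oligomycin, and Cth at 2.33, 5.05 and 3.09 and then 34.4, 38.6 and 34.4. Gpt2 was uneven, at 308, 357 and 197 CPM with oligomycin. Leaving out a replicate gave 4 to 6 calls under oligomycin, with those of Gpt2 and Ass1 lost in some of these fits. With piericidin Asns held 192, 177 and 192 CPM, a change of 0.15 with a 95% interval of 0.05 to 0.25 (adjusted p = 0.15). The only call under piericidin was Aldh18a1, which fell by 0.25 (background 2.75%), and it was lost whichever replicate number was left out. Glul held 70.2, 72.2 and 65.5 CPM in DMSO and 66.3, 72.0 and 61.7 with oligomycin.

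Levels without inhibitor differed with the state of the cells, a comparison in which serum, doxycycline and the luciferase transgene change together with differentiation and cannot be told apart from it. Against control myoblasts, day 1 cells had more Pycr1, Gpt2 and Glul, by 0.99, 1.14 and 1.32 on the log2 scale, and less Aldh18a1, Cth and Ass1, by -0.60, -1.75 and -2.13 (6 of 7 called, background 63.6%). Ass1 thus went from 167, 174 and 164 CPM in control myoblasts to 34.9, 39.9 and 41.2 in day 1 cells and 41.1, 38.9 and 35.4 in myotubes. From day 1 cells to myotubes Asns, Aldh18a1, Cth and Glul differed by -0.66, -0.21, -0.94 and -1.04 (background 35.6%, 16% lower), and the calls of Aldh18a1 and Cth were each lost in 1 of 3 fits without a replicate. Glul, at 32.8, 32.6 and 34.7 CPM in myotubes, was therefore highest in day 1 cells. Between myotubes and control myoblasts all 7 differed (background 69.4%, 33.7% lower), Ass1 and Cth by -2.13 and -2.69 and Gpt2 by 1.10 on the log2 scale. In the comparisons with myotubes, Cth met the count minimum only through the other cells, where it was higher.

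**Figure D4:**
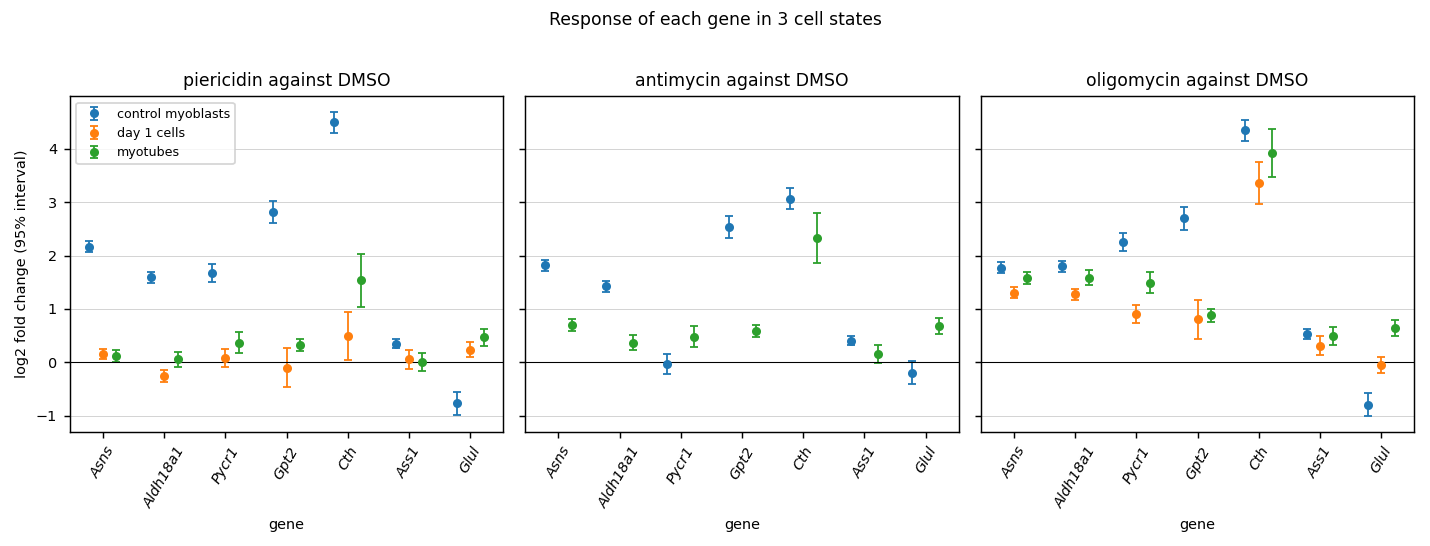
Log2 fold change of 7 genes against DMSO (vertical, points with 95% intervals) under piericidin, antimycin and oligomycin (panels) in control myoblasts, day 1 cells and untransduced myotubes (colours), with no day 1 samples under antimycin. Under oligomycin Asns lies between 1.30 and 1.78 in the 3 states, under piericidin it lies at 2.17 in myoblasts and at 0.15 and 0.12 in the other states, and Glul lies below 0 in myoblasts and above 0 in myotubes.

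The responses differed between states by the test of the difference. Under piericidin all 7 responses of myotubes differed from those of control myoblasts (background 46.5%, 21.3% lower). The difference was -1.49 ± 0.09 for Aldh18a1 and -2.90 ± 0.29 for Cth on the log2 scale, 6 were lower and Glul was higher, with the Ass1 call lost in 2 of 3 fits without a replicate. Under antimycin 6 differed (47.9%, 22.5% lower), Gpt2 by -1.91, Pycr1 by 0.56, a call lost in 1 of 3 such fits, and Cth by -0.70, lost in 2 of 3. Under oligomycin 4 differed (29%, 13.2% lower), Gpt2 by -1.81 ± 0.22, Pycr1 by -0.76 ± 0.13, Glul upward and Asns by -0.19 ± 0.07, a call lost whichever replicate number was left out. In day 1 cells 6 differed under piericidin (46.6%, 21.2% lower) and 6 under oligomycin (24.9%, 10.1% lower). The median over all genes in these 5 tests of a difference was between 0.04 and 0.07.

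Glul changed sign between the states. In myoblasts oligomycin took it from 25.6, 30.7 and 26.1 down to 15.3, 17.3 and 14.2 CPM, and in myotubes from 32.8, 32.6 and 34.7 up to 52.2, 47.0 and 52.6 CPM. Neither pair of groups overlapped. The difference in response was 1.44 ± 0.11 on the log2 scale (adjusted p = 7.6e-11) under oligomycin, 1.28 ± 0.11 under piericidin and 0.93 ± 0.11 under antimycin. In transduced myotubes Glul rose with oligomycin as well, to 49.8 and 51.4 CPM with GFP and to 50.9, 46.6 and 47.5 with LbNOX.

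Over the 35 conditions Cth ranged from a mean of 1.79 CPM in untreated myotubes, on estimated counts of 9 to 27, to 256 CPM in control myoblasts with piericidin. The ratio of the highest to the lowest condition was 9.64 for Asns, 6.76 for Aldh18a1, 5.20 for Pycr1, 7.84 for Gpt2, 13.8 for Ass1 and 5.21 for Glul. When the conditions were ordered by mean level, 15 of the 34 neighbouring pairs had sample ranges that did not overlap for Asns, 12 for Cth, 8 for Gpt2, 7 for Aldh18a1, 7 for Ass1, 7 for Glul, 3 for Pycr1 and 0 for Cbs. Most neighbours in the order thus did not differ beyond their spread.

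Condition means, centred within each experiment on the log2 scale, ran closely together for some members. Pearson's r over the 35 conditions was 0.97 between Asns and Cth, 0.95 between Asns and Aldh18a1 and 0.89 between Gpt2 and Cth. It was 0.82 between Asns and Pycr1, and -0.28 between Asns and Glul. Among 9340 other expressed genes the closest to Asns were Gars (r = 0.98), Shmt2 (0.98), Mthfd2 (0.98), Slc7a5 (0.98) and Slc6a9 (0.97). Those closest to Cth were Aldh1l2, Cdsn and Psph (0.98, 0.97 and 0.97), to Aldh18a1 Car6, Glce and Tars (0.98 each), to Gpt2 Cox6a2, Serpinf1 and Aldh1l2 (0.94, 0.93 and 0.92), and to Pycr1 Phf10, Psph and Slc1a5 (0.89 each). The closest to Ass1 were Echs1, Atp6ap2 and Lhfpl2 (0.84, 0.83 and 0.82), to Glul Plxnb2, Ubr7 and Mknk2 (0.86, 0.81 and 0.79) and to Cbs Atoh8 and Dapk2 (0.87 and 0.86). These values describe conditions measured in the same libraries, which also share controls.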

How the data were processed

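C2C12 RNA was sequenced from 96 samples after poly-A selection by a Smart-seq2 protocol that does not keep strand. The authors made FASTQ files with bcl2fastq 2.20.0.422, quantified transcripts with kallisto 0.44 (bias-corrected, both flow cells added up) against an Ensembl annotation of GRCm38.p6 (mm10 in their notes) to which the transgenes were added, summed them per gene with tximport and deposited 1 table of estimated counts, which is the only file used here. Estimated counts were rounded to whole numbers. Groups came from the sample labels, which number replicates but do not say that they are separate cultures, so that p-values measure the spread between these samples and may hold technical spread only.

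A gene entered a fit when all replicates of 1 or more of its conditions reached 16 counts. Counts were scaled by TMM and compared by the quasi-likelihood F test of edgeR 4.0.16 in R 4.3.3, with p-values adjusted by Benjamini-Hochberg over all genes tested and a threshold of 0.05. There were 6 fits, 1 for each of 5 experiments and a joint one for the cell states, and 52 comparisons, of which 16 test a difference between responses and 3 were added after the data had been seen. SEs were derived from the log2 fold change and its F statistic, and 95% intervals are normal. CPM were scaled by TMM over all 96 samples. The script was tested on simulated data. DESeq2 1.42.0, other scalings, filters and designs, and left-out replicates were tried.

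The members and the gene lists were chosen with earlier results of these data known. Listed genes are named where they were called at 2-fold or more in a comparison of control myoblasts or untransduced myotubes, or are paralogs of a member; Pycr3 is listed in the table as Pycrl. Genes most like a member are the 3 (5 for Asns) with the highest Pearson r among genes with a mean of at least 50 counts. Same-numbered replicates did not deviate together in any fit. Near-identical transcripts were found with blastn 2.17.0 (at least 90% identity over 200 bases), annotation is GENCODE and promoters are from RefSeq. A few genes that these rules name are not reported here.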

Additional observations from a re-analysis of the deposited data

Results flagged for a closer look

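A test of the difference between 2 responses singled out 15 comparisons, each with at least 1 of the genes past the threshold. The values are differences in log2 fold change, and the share in brackets is that of all genes tested that passed the same test.

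Among myoblast lines treated with piericidin, 6 genes differed between LbNOX and control (44.3%), with Cth at -2.21, and 7 between NDI1 and control (42.7%), with Cth at -4.27. Between mitoLbNOX and control 5 differed (42.9%), with Cbs at 1.81 on counts of at most 36 and not called in 2 of 3 fits without a replicate. The Cbs call does not support that count, as only mitoLbNOX with piericidin met the count minimum among the groups compared. For antimycin, 5 differed with LbNOX (51.5%), with Gpt2 at -1.39, and 3 with mitoLbNOX (31.7%), with Pycr1 at 1.34. For oligomycin with LbNOX, 1 gene differed (7.98%), Asns at -0.22, and 0 did in any fit without a replicate. For chloramphenicol with LbNOX, 4 differed (0.53%), with Cth at -0.96, and 1 did with a replicate block.

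Between cell states, the response of myotubes differed from that of control myoblasts in 7 genes for piericidin (46.5%), with Cth at -2.90, in 6 for antimycin (47.9%), with Gpt2 at -1.91, and in 4 for oligomycin (29%), with Gpt2 at -1.81. The response of day 1 cells differed in 6 genes for piericidin (46.6%), with Cth at -3.96, and in 6 for oligomycin (24.9%), with Gpt2 at -1.85.

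Within myotubes, the response to oligomycin differed in 7 genes with piericidin present (14.6%), with Cth at -3.25, in 7 with BAM15 present (18.6%), with Cth at -3.39, and in 6 at 5% oxygen (17.4%), with Cth at -3.16. These 3 values, and that of Cth between myotubes and myoblasts, rest on estimated counts of 19, 27 and 9 in the DMSO samples of myotubes.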

How the results depend on the processing

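With 2 or 3 samples a group, each change rested on few libraries, and Cbs calls rested on counts near or under the filter. Calls lost on leaving out a replicate were not only those of small changes. Gpt2 at 0.81 on the log2 scale for oligomycin in day 1 cells was among them. Of 388 changes of single members, 385 kept their side of the threshold with DESeq2 size factors, 366 with no count filter, 355 with only the groups compared in the fit, 380 with a replicate block and, of those it could test, 367 of 375 by DESeq2 and 363 of 374 with well position as a covariate. No called change turned its sign under any of these or on leaving out a replicate. Of 3585 values of called and uncalled changes together, 66 turned their sign, 48 of them on leaving out a replicate. All 66 belonged to changes that were not called. Over the fits that left out a replicate, 137 of 1284 lost their call and 6 gained one. Well position could not be fitted in day 1 cells.

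The number of members called moved by more than 1.5 times under some alternative in 14 of the 52 comparisons. With no count filter it was 1 in place of 0 for piericidin in NDI1 myoblasts and 0 in place of 1 for the oligomycin response with LbNOX. With only the groups compared it was 1, 0 and 2 for LbNOX, mitoLbNOX and NDI1 against control in DMSO, 0 and 2 for piericidin in GFP and LbNOX myotubes and 0 for piericidin in day 1 cells. Same-numbered samples did not deviate together, so the replicate number was no pairing. With it as a replicate block the chloramphenicol response with LbNOX had 1 in place of 4 and piericidin in day 1 cells 0 in place of 1, and no other count moved that far.

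Leaving out a replicate (single samples in the chloramphenicol experiment) gave 0 to 1 for piericidin in NDI1 myoblasts, 0 to 0 for the oligomycin response with LbNOX, 1 to 2 for the antimycin response with mitoLbNOX, 1 to 2, 0 to 1 and 2 to 5 for LbNOX, mitoLbNOX and NDI1 against control in DMSO, and 3 to 6 and 0 to 2 for chloramphenicol in LbNOX myoblasts and its difference from control. It gave 2 to 3 for piericidin in myotubes, 1 to 2 for 5% oxygen, 1 to 3 and 1 to 2 for piericidin in GFP and LbNOX myotubes, 0 to 0 for piericidin in day 1 cells and 2 to 4 for myotubes against day 1 cells. These settings hold fewer samples, and other causes were not tested. Where 1 sample of an NDI1, chloramphenicol-experiment or GFP group was left, the spread came from the other groups, so that such counts are uncertain.

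Counts over all genes, from which the backgrounds come, moved by more than 1.5 times under some alternative in 32 of 52 comparisons. Leaving out a replicate did so in 79 of 171 fits, for example to 24 to 51 for 325 (piericidin in day 1 cells), 136 to 288 for 382 (piericidin in GFP myotubes) and 2642 to 3388 for 4164 (oligomycin in myotubes). With only the groups compared they were 517 for 1063 (piericidin in LbNOX myoblasts), 166 for 319, 84 for 209 and 206 for 548 (LbNOX, mitoLbNOX and NDI1 in DMSO), 632 for 989 and 63 for 109 (chloramphenicol in control and LbNOX myoblasts), 261 for 532 (oligomycin within 5% oxygen), 27 for 382 (piericidin in GFP myotubes) and 0 for 1 (piericidin in NDI1 myoblasts, and LbNOX against GFP). With no filter they were 538 for 1 (piericidin in NDI1 myoblasts), 532 for 209 (mitoLbNOX in DMSO), 694 for 109 and 440 for 62 (chloramphenicol with LbNOX and its difference), 1347 for 839 (piericidin in LbNOX myotubes), 199 for 0 and 184 for 1 (LbNOX against GFP, oligomycin response and DMSO) and 613 for 325 (piericidin in day 1 cells). By DESeq2 they were 6, 178, 167, 1 and 16 for 1, 109, 62, 0 and 1 in the matching comparisons. The block gave 22 for 62 (chloramphenicol difference) and 0 for 1 (LbNOX against GFP), and well position gave 2945 for 4549 (myotubes against day 1 cells) and 2316 for 3702 (oligomycin response, myotubes minus myoblasts).

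By Spearman's rho in place of Pearson's r, the genes ranked closest to Asns were again Gars, Shmt2, Mthfd2, Slc7a5 and Slc6a9, in another order. Many genes named for other members ranked lower by rho: Slc1a5 was 25th for Pycr1, Cox6a2 23rd for Gpt2, Atp6ap2 22nd for Ass1, Atoh8 22nd for Cbs, Mknk2 12th for Glul, Car6 11th for Aldh18a1 and Cdsn 8th for Cth.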
